A study of Gallus gallus with 3 samples.

Results

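Genes of meiotic recombination were examined in cultured primordial germ cells (PGCs) of the chicken, the embryonic cells that later give rise to eggs and sperm, against cultured embryonic stem cells (ESCs). The study took the ESCs as the somatic side of the comparison. The 10 genes chosen by name were SPO11, DMC1, MND1, PSMC3IP, MEIOB, MSH4, MSH5, HFM1, TEX11 and MLH3. Of these, 9 were matched by symbol among the 19152 genes of the count table, and MSH5 is not analysed here. Transcripts were measured by RNA sequencing of total RNA, with 2 PGC libraries (replicates 2 and 3) and 1 ESC library (replicate 2). Neither cell type carried a treatment or a genetic change according to the labels. Both were grown in culture, so the values describe cultured cells and not cells of the embryo. Embryo age, sex and culture time are not given for these libraries.

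Meiotic recombination begins when the SPO11 enzyme cuts both strands of chromosomal DNA. The broken ends are coated by single-strand binding proteins and then loaded with the recombinase DMC1, which searches the homologous chromosome for a match. Some of the joined intermediates are stabilised and resolved as crossovers, which hold homologous chromosomes together until they separate. In birds and mammals this takes place in germ cells that have entered meiosis, and PGCs are the mitotic cells that precede that entry. The roles given below are known mainly from mouse, budding yeast and human cells.

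Counts assigned to genes totalled 19754278 and 20401551 in PGC replicates 2 and 3, against 20568106 in the ESC library. Values are given as CPM, which are counts brought to a common library size. The library sizes were adjusted by TMM, a trimmed mean of log ratios that sets the bulk of genes level between libraries. A count of 3 corresponded to 0.134 and 0.144 CPM in the PGC libraries, against 0.169 CPM in the ESC library. The germ cell markers DAZL, DDX4, PIWIL1 and MAEL were higher in PGCs in 4 of 4 cases. DAZL, an RNA-binding protein of germ cells, had 45865 and 47278 counts in PGCs, against 16 counts in ESCs. The pluripotency markers NANOG and POU5F3 did not pass the test (adjusted p = 0.939 and 0.253, edgeR quasi-likelihood test). Of 6 fibroblast markers, 5 were matched, and the summed level of the 4 that passed the filter on low counts was 623 and 732 CPM in PGCs, against 62.3 CPM in ESCs. Most of that sum was COL3A1 and COL1A2, while DCN had 1 and 5 counts in PGCs against 123 counts in ESCs, and TWIST1 had 1 and 0 counts against 9. Endoderm markers summed to 2.14 and 1.20 CPM in PGCs against 3.55 CPM in ESCs, but differed in direction. SOX17 was called higher, with 18 and 10 counts in PGCs against 0 in ESCs (edgeR adjusted p = 0.0324). GATA6 was called lower, with 14 and 7 counts against 36 (edgeR adjusted p = 0.0466), and FOXA2 was not called. Gonadal somatic markers summed to 7.91 and 3.84 CPM against 3.15 CPM, and none was called. AMH, WT1 and FOXL2 were above the ESC library in both PGC libraries, and NR5A1 lay on either side. The part of other cell types in the results below was not tested. In bulk RNA, fewer cells with a transcript and less transcript per cell cannot be told apart.

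All 9 matched genes were detected in both cell types, with at least 10 counts in each library. For 4 of them the difference passed the test, and in each the level was higher in PGCs. These genes were the recombinase DMC1, its cofactor MND1, the crossover helicase HFM1 and the synapsis protein TEX11. The remaining 5, which include the break-forming enzyme SPO11, did not pass. Differences were tested with edgeR's quasi-likelihood test, with Benjamini-Hochberg adjustment over 14489 genes and a threshold of 0.05. The fit assumes that the lone ESC library varies as the PGC libraries do, and there is no replicate check on the ESC side. Columns headed as replicate 1 of PGCs and of ESCs matched no sample label and were not used. The 4 of 9 genes called higher stood beside 3069 genes called higher in all, which was 21.2% of genes tested. No recombination gene of the set was called lower by DESeq2 or by edgeR, where 0 were lower at an unadjusted p under 0.05 as well, beside 20.6% of all genes called lower by edgeR. Both PGC libraries exceeded the ESC library for 7 of the 9 genes, beside 45.8% of all genes. Both lay below it for 1 gene, SPO11, beside 44.1% of all genes. The median log2 ratio of PGCs to ESCs was 0.58 over the 9 genes and 0.03 over all genes tested.

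**Figure D1:**
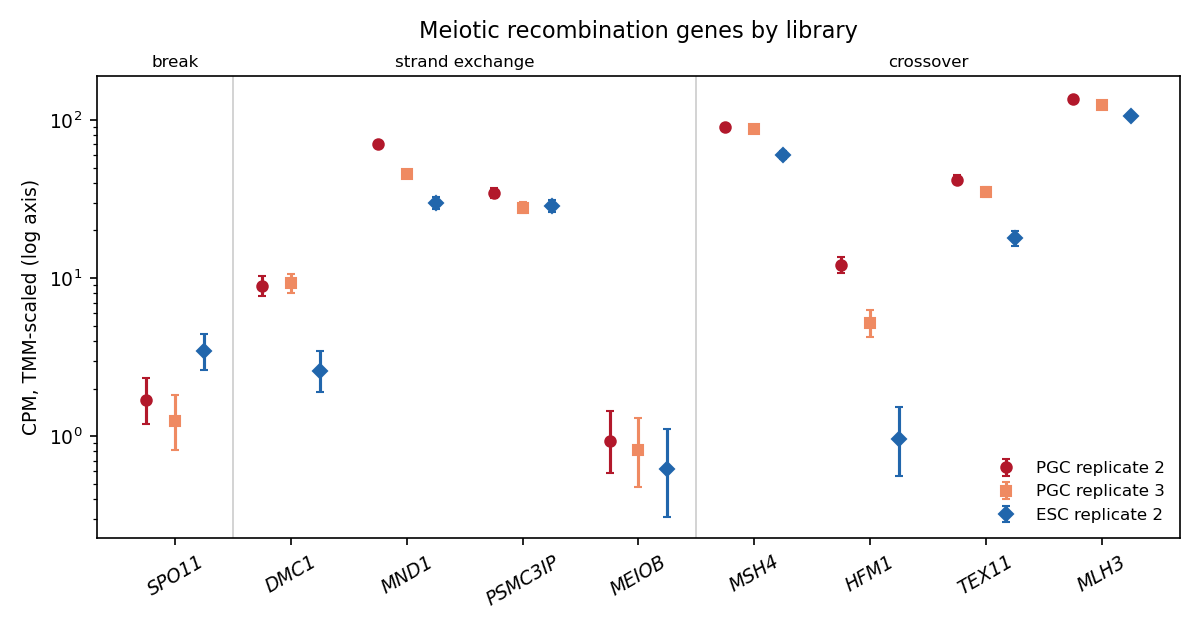
Level of 9 meiotic recombination genes in CPM (log axis) in PGC replicate 2, PGC replicate 3 and the ESC library, ordered by step of recombination. Points are single libraries and bars are exact Poisson 95% intervals, which cover counting error only. HFM1 and DMC1 show the widest gaps between PGC and ESC points, and SPO11 is the gene whose PGC points both lie below the ESC point.

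SPO11 (ENSGALG00000031768), the enzyme that makes the programmed double-strand break, lies on chromosome 20 at 11856407 to 11865945, minus strand, in the galGal5 build. It had 38 and 26 counts in PGC replicates 2 and 3, against 61 counts in ESCs. These were 1.70 and 1.25 CPM in PGCs, against 3.44 CPM in ESCs. Both PGC libraries were therefore below the ESC library, in the opposite direction to DMC1. The ratio to the ESC library was 0.494 in PGC replicate 2 (exact 95% interval 0.321 to 0.753) and 0.363 in PGC replicate 3 (0.220 to 0.584). These intervals cover counting error only. The edgeR log2 fold change was -1.22 ± 0.56 (SE), with an adjusted p of 0.104, so the difference did not pass the test once the spread between libraries was taken into account. Over 7 fits, this one and those with other settings or tools, the adjusted p was between 0.0888 and 0.365.

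The listed companions of SPO11 in break formation had another pattern. Of the 6 listed, MEI1, MEI4 and REC114 were matched, and all 3 were higher in PGCs by edgeR, beside 21.2% of all genes. In mouse these proteins are needed for break formation by SPO11. MEI1 had 94.1 and 60.9 CPM in PGCs, against 2.48 CPM in ESCs, a 31.2-fold difference (log2 fold change 4.96 ± 0.41, adjusted p = 2.3e-05). MEI4 had 53 and 29 counts in PGCs against 0 in ESCs, which was at least 11.1-fold higher when the ESC library was set to the floor of 3 counts (edgeR adjusted p = 0.00359). REC114 had 264 and 77 counts in PGCs against 1 count in ESCs, with an adjusted p of 0.00129 by edgeR. With a single ESC count its ratio was poorly bounded, at 209 in PGC replicate 2 (37.3 to 8301) and 65.6 in PGC replicate 3 (11.4 to 2626). REC114 shares 162 exon bases with NPTN on the opposite strand, and the strand setting of the counting was not stated, so reads there cannot be told apart. NPTN had 2694 and 2949 counts in PGCs, against 4105 counts in ESCs. The catalytic gene was thus the only measured break gene below its ESC level in both PGC libraries. The difference between SPO11 and its companions was not itself tested.

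DMC1 (ENSGALG00000012236, chromosome 1, 50896431 to 50910979, plus strand) is the meiosis-specific recombinase that pairs a broken end with the homologous chromosome. It had 200 and 193 counts in PGCs, against 46 counts in ESCs. In CPM these were 8.93 and 9.27 in PGCs, against 2.59 in ESCs. The PGC libraries were close to each other and both well above the ESC library. DMC1 was 3.51-fold higher in PGCs (log2 fold change 1.81 ± 0.45, edgeR adjusted p = 0.00967), and both libraries passed a 2-fold threshold with log2 ratios of 1.75 and 1.80.

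To compare the level of different genes within a library, counts were divided by gene length and brought to a common total (TPM). In TPM, DMC1 averaged 12.1 ± 0.938 in PGCs (SD, n = 2) and was 2.49 in ESCs. MND1, a subunit of its cofactor described next, exceeded DMC1 13.4-fold and 8.37-fold in PGCs, against 19.6-fold in ESCs.

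MND1 and PSMC3IP encode the partners of one complex, known as HOP2-MND1 in yeast and mouse, that stimulates strand exchange by DMC1. MND1 (ENSGALG00000009212, chromosome 4, 20040123 to 20078631, plus strand) had 1579 and 948 counts in PGCs, against 530 counts in ESCs. The levels were 70.5 and 45.5 CPM in PGCs, against 29.8 CPM in ESCs. Both PGC libraries were above the ESC library, at unequal distance. MND1 was 1.94-fold higher in PGCs (log2 fold change 0.96 ± 0.31, edgeR adjusted p = 0.0322). With the size factors of the deposited normalized table in place of TMM, the adjusted p was 0.0536 and the call was lost.

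PSMC3IP (ENSGALG00000019741, chromosome 27, 5394153 to 5396864, minus strand) had 34.5 and 27.9 CPM in PGCs, against 28.6 CPM in ESCs. Its PGC values lay on either side of the ESC value, with a log2 fold change of 0.13 ± 0.27 (edgeR adjusted p = 0.728). The exons of PSMC3IP overlap those of MLX on the opposite strand by 7 bases. In TPM the ratio of MND1 to PSMC3IP was 3.36 and 2.69 in PGCs, against 1.72 in ESCs. Transcripts of this pair were thus less evenly matched in the PGC libraries than in the ESC library.

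MEIOB (ENSGALG00000005411, chromosome 14, 6080225 to 6091631, minus strand) is a single-strand DNA-binding protein related to RPA1 and needed for meiotic recombination in mouse. It was the least abundant of the 9 genes in PGCs. It had 21 and 17 counts in PGCs, against 11 counts in ESCs, or 0.938 and 0.816 CPM against 0.619 CPM. The counting intervals of the ratio to ESCs spanned 1 in both PGC replicate 2 (1.51, 0.698 to 3.48) and PGC replicate 3 (1.32, 0.582 to 3.11). A difference of this size was not detectable at this depth (log2 fold change 0.50 ± 0.82, edgeR adjusted p = 0.643).

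RPA1, the large subunit of the general single-strand binding complex, was higher in PGCs, with 306 and 286 CPM against 111 CPM in ESCs. Its log2 fold change was 1.42 ± 0.27 (edgeR adjusted p = 0.00248). In TPM, RPA1 exceeded MEIOB 165-fold and 178-fold in PGCs, against 90.5-fold in ESCs. For single-strand binding, the general factor and not the meiotic one passed the test, and the difference between their fold changes was not tested. SPATA22, the partner of MEIOB in mouse, was not matched and is not analysed here.

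Beside 21.2% of all genes called higher, 1 of 8 further strand exchange genes that were matched passed the test and was higher in PGCs. This was HSF2BP, a BRCA2-binding protein of mouse spermatocytes. It had 137 and 85.5 CPM in PGCs against 16.8 CPM in ESCs, which was 6.60-fold higher (log2 fold change 2.72 ± 0.35, edgeR adjusted p = 0.000308). BRCA2 itself, which loads recombinases on DNA, had 115 and 113 CPM in PGCs against 142 CPM in ESCs (log2 fold change -0.31 ± 0.23, edgeR adjusted p = 0.288). RAD51AP1, RAD54L, RAD54B, ZSWIM7, FIGNL1 and MCMDC2 did not pass either. The exons of RAD54B and ZSWIM7 overlap another gene by 326 and 137 bases, so their counts are uncertain. MCMDC2, a MCM-related protein that promotes strand exchange in mouse, differed most between the PGC libraries, with 35 and 93 counts in replicates 2 and 3, against 92 counts in ESCs.

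MSH4 (ENSGALG00000011392, chromosome 8, 29900571 to 29924458, plus strand) forms with MSH5 the clamp that stabilises crossover intermediates. It was an abundant member of the set, with 2036 and 1839 counts in PGCs against 1067 counts in ESCs. The levels of 90.9 and 88.3 CPM in PGCs were near each other and above the 60.1 CPM in ESCs. The difference of 1.49-fold did not pass the test (log2 fold change 0.58 ± 0.24, unadjusted p = 0.0371, edgeR adjusted p = 0.0771). MSH4 is therefore the gene just outside the threshold. Scaling by total counts alone brought it inside (edgeR adjusted p = 0.0142), and that scaling moved the median log2 ratio of all genes to 0.34. By the DESeq2 Wald test the adjusted p of MSH4 was 0.151.

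Its relatives in mismatch repair MSH3 and MSH6 did not pass the test (edgeR adjusted p = 0.736 and 0.729). In TPM the ratio of MSH4 to MSH6 was 0.526 and 0.508 in PGCs, against 0.319 in ESCs. In every library, then, MSH4 was below MSH6, by a smaller margin in PGCs.

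HFM1 (ENSGALG00000006091, chromosome 8, 14585997 to 14605147, plus strand) encodes a DNA helicase, known as Mer3 in yeast, that promotes crossover formation. It showed the widest difference of the set. It had 272 and 108 counts in PGCs, against 17 counts in ESCs, or 12.1 and 5.18 CPM against 0.957 CPM. The PGC libraries were themselves well apart, and both were above the ESC library. The ratio to ESCs was 12.7 in PGC replicate 2 (7.78 to 22.1) and 5.42 in PGC replicate 3 (3.23 to 9.64). HFM1 was 9.01-fold higher in PGCs by edgeR (log2 fold change 3.17 ± 0.67, adjusted p = 0.00445). Without PGC replicate 2 its log2 ratio was 2.32, and without PGC replicate 3 it was 3.54.

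TEX11 (ENSGALG00000005775, chromosome 4, 2457543 to 2483536, plus strand) is related to the yeast crossover protein Zip4 and is required for male meiosis in mouse. It had 940 and 726 counts in PGCs, against 318 counts in ESCs. The levels were 42.0 and 34.9 CPM in PGCs, against 17.9 CPM in ESCs. TEX11 was 2.15-fold higher in PGCs (log2 fold change 1.10 ± 0.28, edgeR adjusted p = 0.0109). Its log2 ratios of 1.22 and 0.96 placed it on either side of a 2-fold threshold. In all, 2 of the 9 genes, DMC1 and HFM1, were at least 2-fold higher in both PGC libraries, beside 21.6% of all genes. By the same log2 ratios none was at least 2-fold lower in both, beside 15.8% of all genes. These ratios used a prior count of 2, which draws low counts toward no difference. SPO11 had log2 ratios of -0.98 and -1.39 in PGC replicates 2 and 3. Without the prior count its ratios of 0.494 and 0.363 were both more than 2-fold lower.

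SHOC1 and SPO16, which act with TEX11 in the group of crossover proteins called ZMM, were measured as its partners. SHOC1 had 6.52 and 3.89 CPM in PGCs, against 0.0563 CPM, or 1 count, in ESCs (edgeR adjusted p = 0.000693). Its ratio to ESCs was 116 in PGC replicate 2 (20.5 to 4604) and 69.0 in PGC replicate 3 (12.0 to 2761). SPO16 had 237 and 87 counts in PGCs, against 49 counts in ESCs, and did not pass (log2 fold change 1.42 ± 0.61, edgeR adjusted p = 0.0833).

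MLH3 (ENSGALG00000010304, chromosome 5, 38176680 to 38194379, minus strand) is a nuclease subunit that resolves crossover intermediates, and it also has a part in mismatch repair. It had the highest counts of the set, with 3031 and 2591 in PGCs against 1883 in ESCs. The levels of 135 and 124 CPM in PGCs were above the 106 CPM in ESCs, by less than the test could separate (log2 fold change 0.29 ± 0.24, edgeR adjusted p = 0.336).

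Relatives of MLH3 that are not specific to meiosis were measured beside it. PMS1, of uncertain role in repair, was higher in PGCs with 171 and 156 CPM against 62.9 CPM in ESCs (log2 fold change 1.38 ± 0.25, edgeR adjusted p = 0.00209). PMS2, a nuclease subunit of mismatch repair, had 80.3 and 82.8 CPM in PGCs against 121 CPM in ESCs and did not pass (adjusted p = 0.0660). The TPM ratio of MLH3 to PMS2 was 1.03 and 0.917 in PGCs, against 0.533 in ESCs. That of MLH3 to PMS1 went the other way, with 1.18 and 1.20 in PGCs against 2.52 in ESCs. PMS1 shares 47 exon bases with ORMDL1 on the opposite strand.

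**Figure D2:**
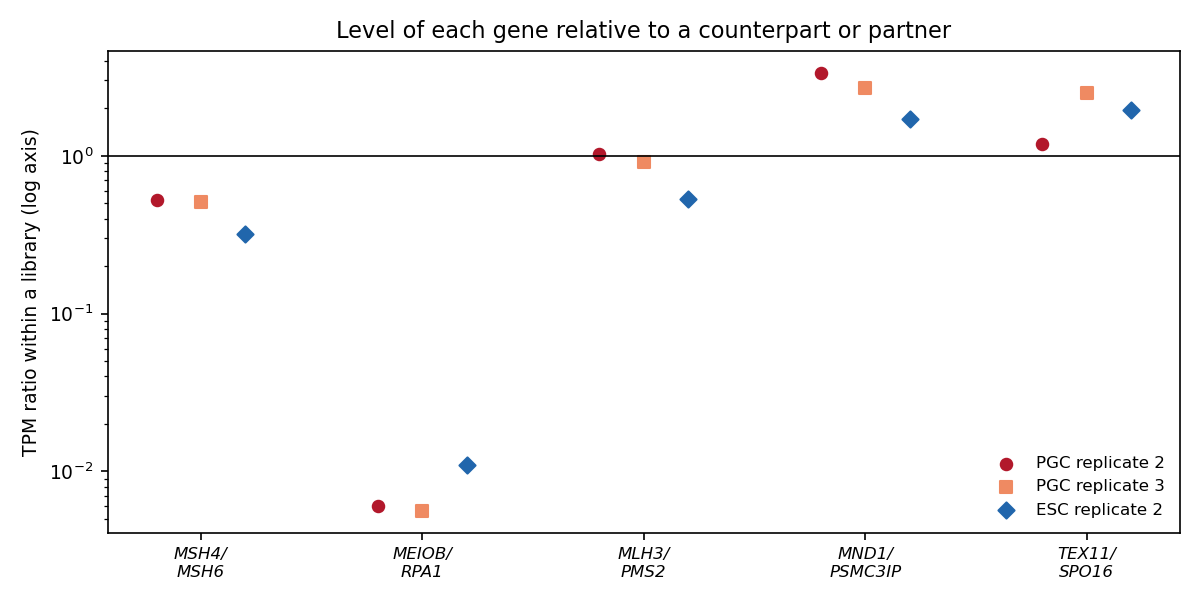
Ratio of TPM within each library (log axis) for a meiotic recombination gene and its mitotic counterpart or partner, in PGC replicate 2, PGC replicate 3 and the ESC library. MSH4 was below MSH6 in every library, with ratios of 0.526 and 0.508 in PGCs against 0.319 in ESCs, while MND1 was above PSMC3IP in all 3 libraries.

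Of 7 further crossover genes that were matched, 1 was higher and 2 were lower in PGCs. CNTD1, a cyclin-related protein needed for crossover maturation in mouse, had 104 and 89.1 CPM in PGCs against 16.4 CPM in ESCs. It was 5.87-fold higher (log2 fold change 2.55 ± 0.28, edgeR adjusted p = 0.000122), and 22 of its exon bases overlap COA3 on the opposite strand. GEN1, a nuclease that cuts joined DNA molecules, was lower, with 47.5 and 41.6 CPM in PGCs against 82.8 CPM in ESCs (log2 fold change -0.89 ± 0.24, adjusted p = 0.0137). EXO1, an exonuclease of end resection and mismatch repair, was lower as well, with 82.4 and 95.1 CPM against 141 CPM in ESCs (log2 fold change -0.67 ± 0.23, adjusted p = 0.0426). Both genes that were lower also act in mitotic cells. Of the 7 listed mitotic counterparts, however, 2 (RPA1 and PMS1) were higher and 0 were lower, beside 21.2% and 20.6% of all genes. EME1, BLM, MCM8 and MCM9 did not pass.

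Beside the partners described above, the recombination genes listed by step numbered 30, of which 18 were matched and all 18 passed the filter on low counts. Of these, 5 were higher and 2 lower in PGCs, beside the 21.2% and 20.6% of all genes given above. Their median log2 ratio was 0.10 beside 0.03 over all genes. By step, 3 of 3 break formation genes, 1 of 8 strand exchange genes and 1 of 7 crossover genes were higher. The unmatched genes are not analysed here.

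**Figure D3:**
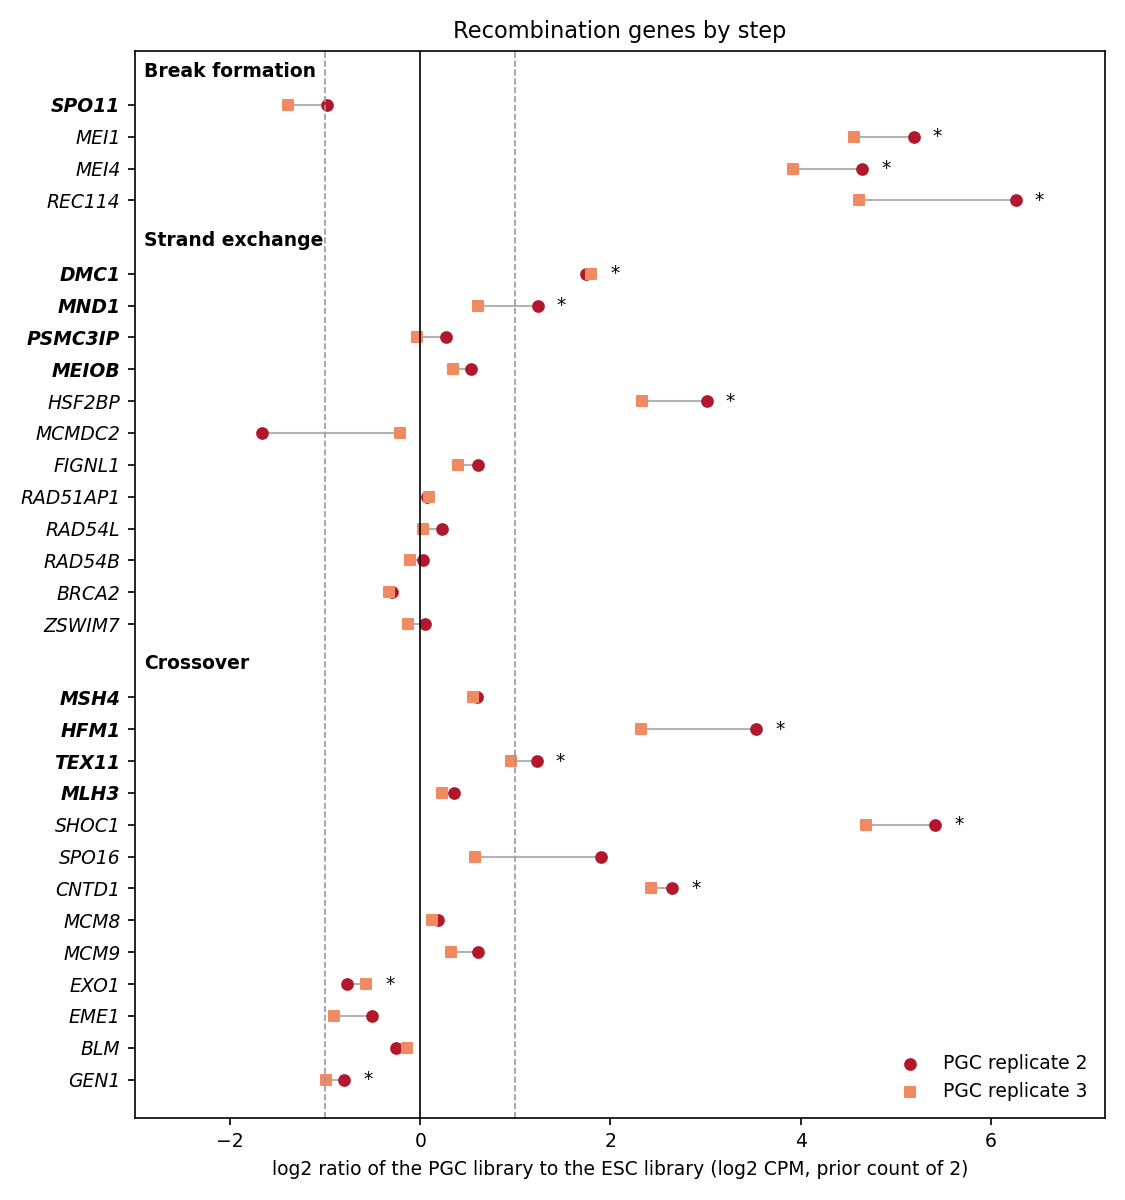
Log2 ratio to the ESC library of PGC replicates 2 and 3 for 29 recombination genes, grouped by step, with 1 point per PGC library. Bold names are the 9 genes described here, an asterisk marks an edgeR adjusted p under 0.05, and dashed lines mark a 2-fold difference in either direction. MEI1, MEI4, REC114 and SHOC1 lie furthest to the higher side, and SPO11 lies below 0 in both libraries.

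Other gene groups of meiosis were measured for comparison. Among genes of the chromosome axis and synaptonemal complex, the protein scaffold on which recombination takes place, 10 of 14 were matched and 7 were higher in PGCs, with a median log2 ratio of 3.46. The 7 were SMC1B, HORMAD1, HORMAD2, SYCP2, SYCP3, SYCP1 and SIX6OS1, of which SYCP3 shares 19 exon bases with CHPT1 on the opposite strand. Of 4 listed genes of meiotic entry, STRA8 and MEIOC were matched and both were higher. Beside both groups, 21.2% of all genes tested were called higher, and the median log2 ratio of all genes was 0.03. STRA8, which switches on the meiotic programme in mouse, had 594 and 368 counts in PGCs, against 9 counts in ESCs (edgeR adjusted p = 5.79e-05). The difference between these groups and the recombination genes was not tested.

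Per unit length, the order of the 9 genes in PGCs, from high to low mean TPM, was MND1, MSH4, MLH3, PSMC3IP, TEX11, DMC1, HFM1, SPO11 and MEIOB. In ESCs the order was MND1, MSH4, MLH3, PSMC3IP, TEX11, SPO11, DMC1, MEIOB and HFM1. The first 5 places were the same, and SPO11 stood above both DMC1 and HFM1 in ESCs alone. MND1 averaged 134 ± 53.8 TPM in PGCs (SD, n = 2) against 48.9 TPM in ESCs, and MEIOB 1.31 ± 0.262 TPM against 0.664 TPM. The order was the same in PGC replicates 2 and 3. In TPM each of the 9 genes was higher in replicate 2. In CPM 8 of them were, beside 50.2% of all genes, and the share of all genes in TPM was not computed. The SDs of the TPM values include the difference shared by the 9 genes. They therefore do not measure the spread of the difference between neighbours. Some neighbours were closer in mean than the sum of their SDs, though their order held in both libraries. MSH4 (70.9 ± 8.78 TPM) and MLH3 (58.0 ± 9.42 TPM) lay within the sum of their SDs. PSMC3IP (43.4 ± 10.9 TPM) lay within it of both MLH3 above and TEX11 below (29.3 ± 6.83 TPM). DMC1 (12.1 ± 0.938 TPM) and HFM1 (6.88 ± 4.49 TPM) also did, as did HFM1 and SPO11 (2.71 ± 0.853 TPM).

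Placed among all genes tested, MND1 ranked at the 92.5th and 86.1st percentile of TPM in PGCs, against the 77.0th in ESCs. DMC1 ranked at the 40.6th and 41.8th percentile in PGCs, against the 26.4th in ESCs. HFM1 ranked at the 36.2nd and 24.9th in PGCs, against the 12.3rd in ESCs. MEIOB and SPO11 were in the lower part of the range in PGCs, between the 12.2nd and the 20.9th percentile. Recombination transcripts in PGCs were thus spread over most of the abundance range. The summed TPM of the 9 genes was 427 and 290.4 in PGCs, against 164 in ESCs. MND1 alone made up 172 and 95.8 TPM of the PGC sums, against 48.9 TPM in ESCs. In TPM the median log2 ratio of all genes was itself 0.49, so the sums include a shift shared with other genes.

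The PGC libraries were compared with each other to show how far single genes vary within the cell type. Of the 9 genes, 8 were higher in PGC replicate 2 than in PGC replicate 3, beside 50.2% of all genes, and DMC1 was the exception. The ratio of replicate 2 to replicate 3 had an exact 95% interval that excluded 1 for 5 genes, beside 54.2% of all genes tested. HFM1 had the largest ratio, 2.34 (1.87 to 2.96), and MND1 followed with 1.55 (1.43 to 1.68). Among the 500 genes next above and the 500 next below in abundance, the distance between replicates was at the 93.8th percentile for HFM1 and the 92.2nd for MND1. DMC1 had a ratio of 0.964 (0.787 to 1.18) and MSH4 of 1.03 (0.967 to 1.10), at the 9.09th and 10.5th percentile. The absolute log2 difference ranged from 0.04 to 1.21 over the 9 genes, and its median over all genes was 0.29. HFM1 and MND1 thus differed between the PGC libraries more than most genes of their level, and DMC1 and MSH4 less.

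The same lean was present in other listed meiotic genes called higher in PGCs. Of 15 such genes, 14 had an interval above 1 for replicate 2 over replicate 3 and none had one below 1. Over all genes tested, 54.2% had an interval that excluded 1 in either direction, and 50.2% were higher in replicate 2. The share with an interval above 1 alone was not computed, for all genes or for all genes called higher in PGCs. The lean is therefore not shown to be particular to meiotic genes. REC114 had a ratio of 3.19 (2.47 to 4.17), HORMAD2 of 2.64 (2.03 to 3.45) and SYCP3 of 2.06 (1.91 to 2.22). SPO16, which was not called, had a ratio of 2.53 (1.97 to 3.28). Among listed meiotic genes not called higher, MCMDC2 went the other way with 0.350 (0.230 to 0.522), as did the axis gene RAD21L1 with 0.484 (0.227 to 0.982). EXO1, BLM and STAG3 also had intervals below 1, with ratios of 0.867, 0.924 and 0.893. The germ cell markers were split. DAZL had 2048 and 2270 CPM and DDX4 had 877 and 1166 CPM in PGC replicates 2 and 3, both lower in replicate 2, while PIWIL1 had 471 and 353 CPM and MAEL 174 and 127 CPM, both higher in replicate 2. The matched fibroblast markers were split as well. COL1A2 had 51.4 and 327 CPM in PGC replicates 2 and 3, while COL3A1 went the other way with 570 and 402 CPM. LUM had 22 and 55 counts, DCN 1 and 5 counts and TWIST1 1 and 0 counts. The part of these markers in the lean was not tested.

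**Figure D4:**
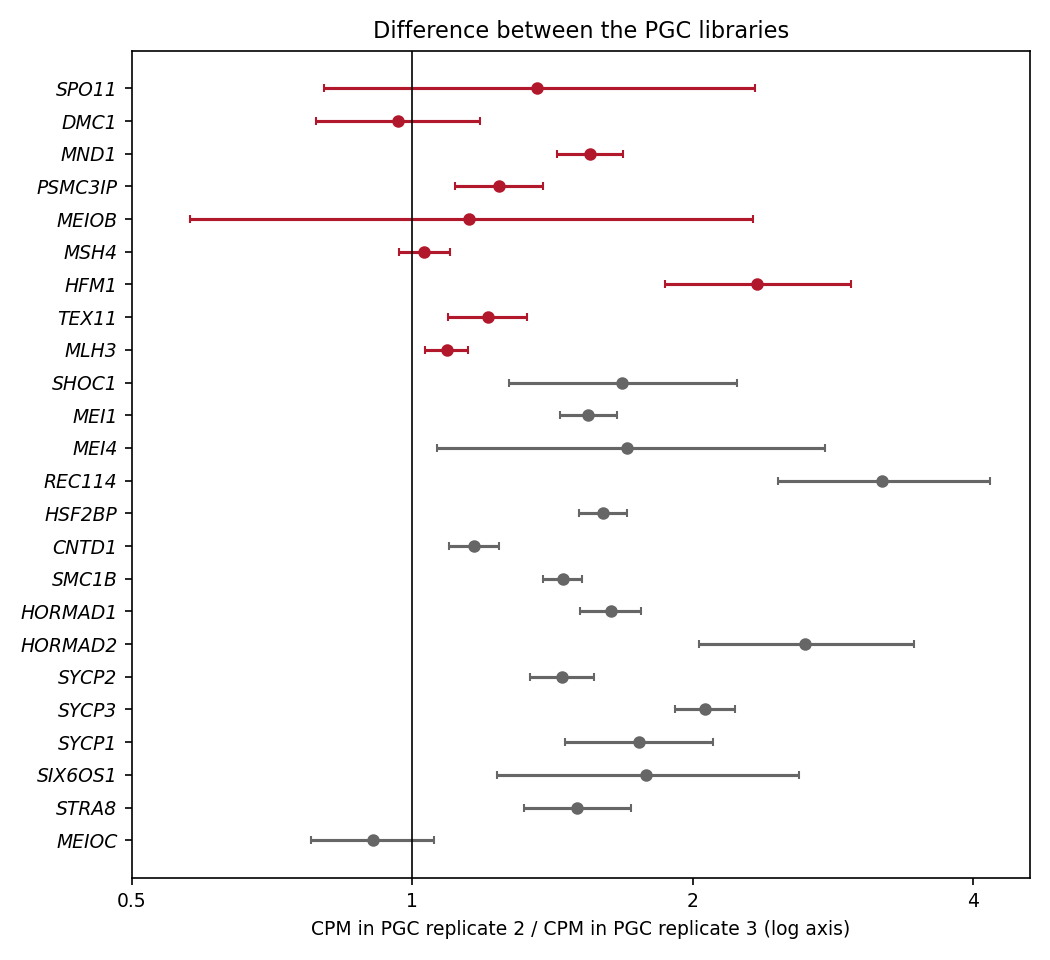
Ratio of CPM in PGC replicate 2 to PGC replicate 3 (log axis) with exact binomial 95% intervals, which cover counting error only. Red points are the 9 recombination genes and grey points are 15 other listed meiotic genes called higher in PGCs; a ratio of 1 means equal levels. DMC1 lies at 0.964 and HFM1 at 2.34, and no grey interval lies wholly below 1.

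The size of each difference depends on how the libraries are scaled. With total counts alone the median log2 ratio of all genes was 0.34, against 0.03 with TMM. In that scaling 66.9% of the genes called were higher in PGCs, against 50.7% with TMM. Relative to these medians, SPO11 stayed below and DMC1, HFM1, TEX11 and MND1 stayed above. Leaving out PGC replicate 3 gave 4 genes at least 2-fold higher, beside 3812 of the 14489 genes tested. Leaving out PGC replicate 2 gave 2, beside 3506. With both PGC libraries the number was 2, beside 3124.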

How the data were processed

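The 2 PGC libraries and 1 ESC library used here were made from total RNA. The study's methods describe more replicates of each cell type than these. Per the study's methods, the authors aligned paired-end reads with TopHat and Bowtie 2 on galGal5 Ensembl genes and counted them with featureCounts. No source gives the versions or the strand setting. The authors deposited raw counts, as whole numbers, for 19152 genes. The authors' second deposited table held a normalized signal, equal to the count divided by a size factor in 100.0% of values, and their fold changes, p-values and adjusted p-values from DESeq2, which were not used. Per-sample values in 4 more columns, named as replicate 1 of PGCs and of ESCs in each table, matched no sample label and were not used. The labels name 1 library provider and give no batch. The study's methods call its replicates biological. The labels do not say that these libraries came from separate cultures, so p-values measure only the spread between these samples, which may be technical.

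A gene was kept when any library had at least 10 counts for it (14489 genes, 4663 removed). The 3 libraries were fitted with edgeR 4.0.16 in R 4.3.3 (TMM, quasi-likelihood F-test, two-sided, Benjamini-Hochberg adjustment). Log2 ratios used a prior count of 2. The SE was the log2 fold change divided by the root of the F statistic. TPM was computed from counts and gene lengths, with a pseudocount of 0.1 for log ratios. Intervals between libraries were exact binomial (95%) and cover counting error only. Alternatives were DESeq2 1.42.0, other scalings, filters, thresholds and left-out libraries.

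Members and gene lists were chosen with earlier results of these data known. Named genes were the members, the listed genes and genes whose exons overlap them. Symbols were matched in the deposited table, and some genes through older symbols (SHOC1, SPO16, SIX6OS1) or through gene IDs in a RefSeq table of assembly GRCg7b, used for names alone (FIGNL1, GEN1, STAG3, SYCP3). A planned description of promoter motifs was not analysed here, for want of sequence. Some listed genes are not reported here.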

Additional observations from a re-analysis of the deposited data

How the results depend on the processing

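No paired analysis was made, because the labels do not link any PGC library to the ESC library beyond a replicate number. All genes called higher in PGCs numbered 3069 with the edgeR test, 2413 with DESeq2 and 2968 with DESeq2's size factors. They numbered 3205 with no filter on low counts and 3006 with at least 10 counts in 2 or more libraries. The number of the 9 genes called higher in PGCs was 4 in each of these settings. It was 5 with total counts alone, where MSH4 was added and all genes called higher numbered 4161. It was 3 with the deposited size factors, an alternative chosen after seeing the data, where MND1 was lost and all genes numbered 2834. At an adjusted p under 0.01 it was 2, against 1766 of all genes in place of 3069. At a 4-fold threshold in both PGC libraries 1 gene passed, HFM1, against 1491 of all genes in place of 3124. With 1 PGC library left out, the number at least 2-fold higher is a value with no test. It was 2 without PGC replicate 2 and 4 without PGC replicate 3, against 3506 and 3812 of all genes. With total counts or TPM it was 3, against 3872 and 4290 of all genes. The adjusted p over all fits was between 0.000322 and 0.0126 for HFM1, 0.00314 and 0.0170 for DMC1, 0.00217 and 0.0192 for TEX11, and 0.00475 and 0.0536 for MND1. In TPM the log2 ratios of 8 genes moved by more than the SD between PGC libraries, with a shift of all genes to a median of 0.49. SPO11 was then at -0.75. None of the called differences changed sign. PSMC3IP, which was not called, was at -0.04 without PGC replicate 2. The edgeR test was not run without a PGC library, since 1 library against 1 leaves no residual degrees of freedom. MEIOB had 11 to 21 counts a library, and its counting intervals spanned 1.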

Other observations

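HFM1 and SPO16, both crossover genes, lie on chromosome 8 with 310 kb between them, and they were among the recombination genes that differed most between the PGC libraries. The log2 difference of PGC replicate 2 to PGC replicate 3 was 1.21 for HFM1 and 1.32 for SPO16. The 4 genes tested that lie between them were also higher in PGC replicate 2, by 0.21 to 0.51 on the log2 scale. Over all genes, 50.2% were higher in PGC replicate 2, and the median absolute log2 difference was 0.29. None of the 4 genes was called higher in PGCs against ESCs by edgeR. This stretch was looked at after the values had been seen, and no test was made of it.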
